A study of Mus musculus with 4 samples.

Results

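The histone genes of sorted mouse olfactory sensory neurons were compared between the transgenic line Nd1 and controls. The members were all rows of the expression table whose symbol begins with Hist and a cluster number, H1f, H2af or H3f, which gave 87 of 28168 loci. By the symbol, 13 of these encode linker histone H1, 25 encode H2A, 21 encode H2B, 14 encode H3 and 14 encode H4. Messenger RNA was polyadenylated RNA from neurons purified by fluorescence-activated sorting, in 4 libraries, 2 per group. All mice were OMP-IRES-GFP+/-, with green fluorescent protein expressed from the Omp locus. Both Nd1 libraries came from Nd1+/- mice that were also OMP-IRES-tTA+/-, with the transcriptional activator tTA expressed from Omp, a gene of mature olfactory neurons. The control of replicate 1 was Nd1+/- and OMP-IRES-tTA-/-, and the control of replicate 2 was Nd1-/- and OMP-IRES-tTA+/-, so the control group mixes both partial genotypes. In each group the mice of replicate 1 were aged 212 days and those of replicate 2 were aged 87 days. The transgene is described in the title of the study as giving double-stranded RNA encoded in the genome. Whether a library came from 1 mouse or several is not given.

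Each group has a single value per locus in the table, pooled by the authors over both of its libraries. The unit is FPKM, sequenced fragments scaled by transcript length and by library total, so that levels can be compared between genes. No spread between libraries and no read depth can be given, and the calls are those of Cuffdiff in the authors' deposited table at q under 0.05. The words rose and fell are kept for loci that passed that threshold. Log2 ratios are Nd1 over control after adding 1 to each FPKM, a scale on which the changes of low genes are compressed. Rescaling the groups moved the median ratio of all loci by up to 0.091, so differences smaller than that have no firm direction. Class medians and single loci could move by more. The H3 median turned from -0.106 to 0.011 after quantile normalization, so some larger differences have no firm direction either.

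Histones package DNA into nucleosomes. A nucleosome core holds pairs of H2A, H2B, H3 and H4, and H1 binds the linker DNA between cores. Most genes of the Hist clusters are replication-dependent: they are transcribed in S phase, and their messages end in a conserved stem-loop in place of a poly(A) tail. Replacement variants such as H3.3, H2A.Z and macroH2A are expressed outside S phase from solitary genes with polyadenylated messages, and a few clustered genes also give polyadenylated messages in cells that no longer divide. Hist2h2be encodes H2BE, an H2B variant known from olfactory sensory neurons, where its level is linked to neuronal activity and life span. Because the libraries were made from polyadenylated RNA, values of replication-dependent genes describe only the polyadenylated part of their messages.

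The first 90 bases of the reading frame are shown for the genes on which the H2B results turn, because similar histone genes can exchange reads. Sequences are from GENCODE M21 transcripts, 5′ to 3′, and capitals mark bases that differ from Hist1h2bc at the same position.
Hist1h2bc: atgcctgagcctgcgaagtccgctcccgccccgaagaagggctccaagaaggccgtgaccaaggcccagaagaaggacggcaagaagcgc
Hist2h2be: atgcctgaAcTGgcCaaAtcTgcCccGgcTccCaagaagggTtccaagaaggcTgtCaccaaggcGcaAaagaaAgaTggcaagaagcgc
Hist3h2ba: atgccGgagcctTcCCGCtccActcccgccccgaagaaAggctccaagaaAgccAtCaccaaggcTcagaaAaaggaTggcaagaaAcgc
Hist2h2be differed from Hist1h2bc at 17 of these bases and at 50 bases of the whole frame, and Hist3h2ba at 15 and at 38. Against 15 other H2B frames of the same length, Hist2h2be was identical at 82.9% to 87.9% of bases. Its longest identical run with any of them was 38 to 47 bases, and it shared no window of 50 bases with any. Neither the read length nor the handling of reads with several matches is given, and their part in these values was not tested.

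The 3′ stem-loop was searched in the GENCODE transcripts of all 78 member symbols as a stem of 6 paired bases, beginning GG and ending CT, around a loop of 4. It was found in 43 of 64 clustered genes and 1 of 14 solitary genes, and in 58 of 55341 gene symbols in all (0.105%). The forms are shown because H4 genes and the others carry different ones, with the stem in capitals.
H1, H2A, H2B and H3 genes: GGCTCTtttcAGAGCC
H4 genes: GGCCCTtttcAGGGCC
Hist1h4i and Hist2h4: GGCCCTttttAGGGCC
H2afx: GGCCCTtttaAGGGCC
The first form was held by 23 genes, none of them for H4, and the second by 7 genes, all for H4. Hist2h2be had no match to this pattern in its transcript of 2620 bases. Gene models can lack the end of the message, so a missing match says only that these letters are not in the annotated transcript. H2afx, whose product H2AX is phosphorylated at DNA breaks, was the only solitary gene with a match, followed by 822 further bases in its transcript.

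Of the 87 rows, 73 were tested in the authors' deposited table, 12 were not tested and 2, both for H2afy, had a failed test. Among the 73 tested, 5 rose and 5 fell, a share of 13.7%. Over all loci, 34.4% of 14841 tested passed, with 15.1% higher and 19.2% lower. Histone loci are short, and 47 of the tested members span less than 1 kb. Of these 47, 3 rose and 1 fell (8.51%), beside 10.1% called among the 268 other tested loci of that length, odorant receptors left out. Of the 26 tested members of 1 kb and over, 2 rose and 4 fell (23.1%), beside 30.3% called among tested loci of any length, odorant receptors left out. The median log2 ratio was -0.081 over the 69 tested members whose mean reached 0.5 FPKM and -0.060 over all 13727 such loci. That of the members turned to 0.011 after rescaling to loci other than odorant receptors and to 0.019 after quantile normalization. The median of all loci also turned, to 0.031 and 0.005 in the same order. In these 69 members, 45 values (65.2%) were lower in Nd1, beside 58.8% of all loci. The summed FPKM of all members was 2071 in control and 1860 in Nd1.

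**Figure D1:**
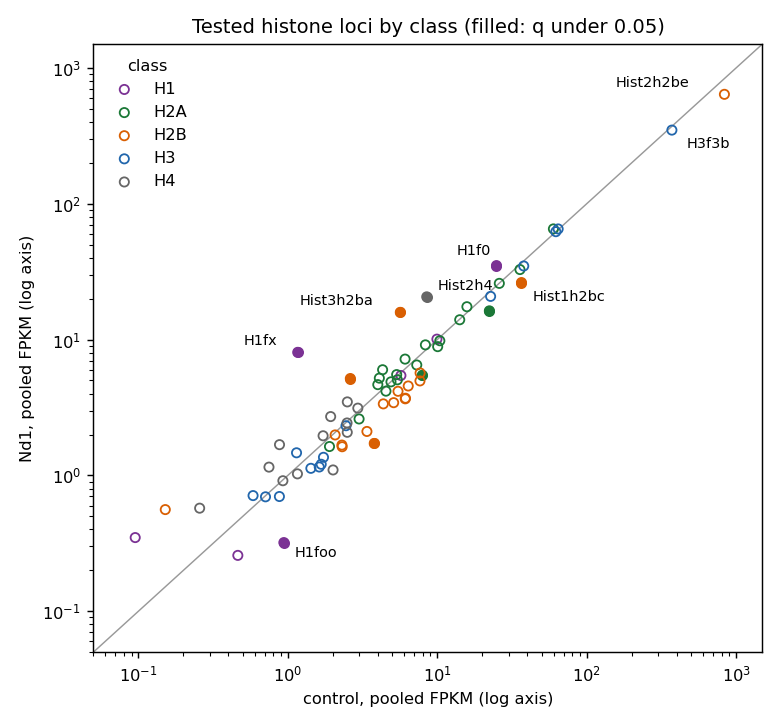
Pooled FPKM of the 73 tested histone loci in control (horizontal) and Nd1 (vertical), both on log axes, coloured by class and filled where q was under 0.05. Hist2h2be lies at 835 and 639 FPKM at the upper end just below the line of equality, and H1fx lies farthest above it among the filled points, at 1.16 and 8.05 FPKM.

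Hist2h2be (mm9 chromosome 3, 96025044 to 96027661) was the most abundant histone message, at 835 FPKM in control and 639 in Nd1. It ranked 29th of all loci in control and 40th in Nd1, and was 22.8-fold and 24.3-fold above the next H2B gene, Hist1h2bc. The log2 ratio was -0.38, and q was 0.0828 (p = 0.0315) in the authors' deposited table, so it did not pass. It made up 88.6% of the summed H2B FPKM in control and 87.6% in Nd1, so most of the H2B signal came from this gene in both groups. The summed FPKM of the other H2B loci was 108 in control and 90.7 in Nd1. The size of the Hist2h2be difference depended on the scaling, with -0.28 after rescaling to loci other than odorant receptors and -0.15 after quantile normalization. None of the 50-base windows of its transcript occurs in the transcript of another member.

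All 14 tested H2B loci of the Hist1 cluster on chromosome 13 were lower in Nd1 by value. Of these 14 loci, 2 fell (14.3%, beside 19.2% of all tested loci that fell). Among loci under 1 kb other than histone genes and odorant receptors, 10.1% passed in either direction. After rescaling, quantile normalization or centring on all loci, 13 of the 14 were lower. Their median log2 ratio was -0.44, and their summed FPKM was 99.4 in control and 69.1 in Nd1. Hist1h2bc (23776068 to 23784349), whose locus spans 8282 bases, fell from 36.6 to 26.3 FPKM (q = 0.0313 in the authors' deposited table). Hist1h2bf fell from 3.79 to 1.72 FPKM (q = 0.0337 in the authors' deposited table), the steepest change of the 14. The other 12 loci lay between 2.07 and 7.68 FPKM in control and between 1.63 and 5.67 FPKM in Nd1. Hist1h2bl (6.11 and 3.66 FPKM) and Hist1h2bj (6.12 and 3.70 FPKM) had p-values of 0.0375 and 0.0424 but did not pass after adjustment in the authors' deposited table. Hist1h2ba, an H2B gene known from testis, stood at 5.11 and 3.43 FPKM and did not pass. Also at or above 5 FPKM in control without passing were Hist1h2bh (6.39 and 4.55 FPKM), Hist1h2bk (5.46 and 4.16 FPKM) and both tested loci of Hist1h2br (7.66 and 4.96, and 7.68 and 5.67 FPKM). Hist1h2bm was the nearest to no difference, at 2.07 and 1.99 FPKM. These genes resemble each other closely: a median of 37.2% of the 50-base windows of an H2B transcript occur in another member's transcript (up to 86.4%). The values of single Hist1 H2B genes are therefore uncertain, and the 14 loci are not independent measurements.

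H2B genes of the Hist3 cluster on chromosome 11 rose in Nd1. Hist3h2ba (58762413 to 58763032), whose transcript holds the stem-loop with 169 annotated bases after it, rose from 5.66 to 15.9 FPKM, 2.80-fold (q = 9.15e-07 in the authors' deposited table). The neighbouring pseudogene Hist3h2bb-ps (58767550 to 58768014) rose from 2.62 to 5.17 FPKM (q = 0.0215 in the authors' deposited table). The third row of this cluster joins Hist3h2a with Trim17, an E3 ubiquitin ligase gene, and fell from 22.3 to 16.3 FPKM (q = 0.0113 in the authors' deposited table). A second row, for Trim17 alone on the same interval, stood at 8.86 and 9.91 FPKM and did not pass, and the part of Hist3h2a in the joined value cannot be told apart. In Hist3h2ba 22.1% of 50-base windows occur in another member, and in Hist3h2bb-ps 30.0%. In the remaining Hist2 H2B gene, Hist2h2bb, the values were low at 0.151 and 0.560 FPKM and did not pass.

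Of 21 tested H2A loci, 2 fell (9.52%, beside 34.4% of all tested loci that passed), none rose and 19 did not pass. Among loci under 1 kb other than histone genes and odorant receptors, 10.1% passed. The median log2 ratio of the H2A loci was -0.014, which turned to 0.082 after rescaling to loci other than odorant receptors. In addition to the joined Hist3h2a row, Hist1h2ac (23773336 to 23775828) fell from 7.93 to 5.45 FPKM (q = 0.041 in the authors' deposited table). The other 10 tested H2A loci of the Hist1 cluster lay between 1.90 and 7.29 FPKM in control, 5 of them higher and 5 lower in Nd1 by value. The largest of these by level were Hist1h2af (7.29 and 6.50 FPKM), Hist1h2ai (6.09 and 7.18 FPKM), Hist1h2ah (5.41 and 5.06 FPKM) and Hist1h2ab (5.35 and 5.52 FPKM). Hist1h2an reached 5.20 FPKM in Nd1 from 4.09 in control, and of the 2 Hist1h2ao loci one went from 4.31 to 5.996 FPKM and the other from 4.53 to 4.17, without passing. The 3 H2A genes of the Hist2 cluster on chromosome 3 were all slightly higher in Nd1 and did not pass: Hist2h2aa1 at 59.9 and 65.3 FPKM, Hist2h2ac at 15.8 and 17.4 FPKM and Hist2h2ab at 8.33 and 9.14 FPKM.

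H2A and H2B genes often lie in pairs that share the DNA between them. Among tested loci, joined rows left out, there were 11 combinations of an H2A and an H2B locus less than 1 kb apart, with gaps of 167 to 812 bases. By the RefSeq table of GRCm38.p6, 6 lie on opposite strands. In 2 others, both of Hist1h2ao and Hist1h2br, the symbols are listed on the plus strand. Each of these symbols has more than 1 locus here, so the strand of a given locus cannot be told. In the last 3 no strand could be assigned to the H2B gene. The H2B ratio was below the H2A ratio in 10 of the 11, with a median difference of -0.51 (log2). The H2B locus was lower in Nd1 in all 11, and the H2A locus in 5. The exception was the pair of Hist1h2ac and Hist1h2bc, whose members both fell, by 0.47 and 0.46 on the log2 scale. Hist2h2be has 2 H2A neighbours, Hist2h2ac at 276 bases and Hist2h2ab at 812 bases, both higher in Nd1 by value. The joined row of Hist3h2a and Trim17, left out here, begins at 58768187, less than 1 kb from Hist3h2bb-ps, which ends at 58768014. There the order was reversed: the log2 ratio was 0.77 for Hist3h2bb-ps and -0.43 for the joined row, and both passed. The difference within pairs was not tested, since no value per library is held, and some loci are near-copies of each other. After quantile normalization the median difference was -0.33, with the H2B ratio below the H2A ratio in all 11. Scalings that move all loci alike leave the difference within a pair nearly as it is and say nothing on it.

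**Figure D2:**
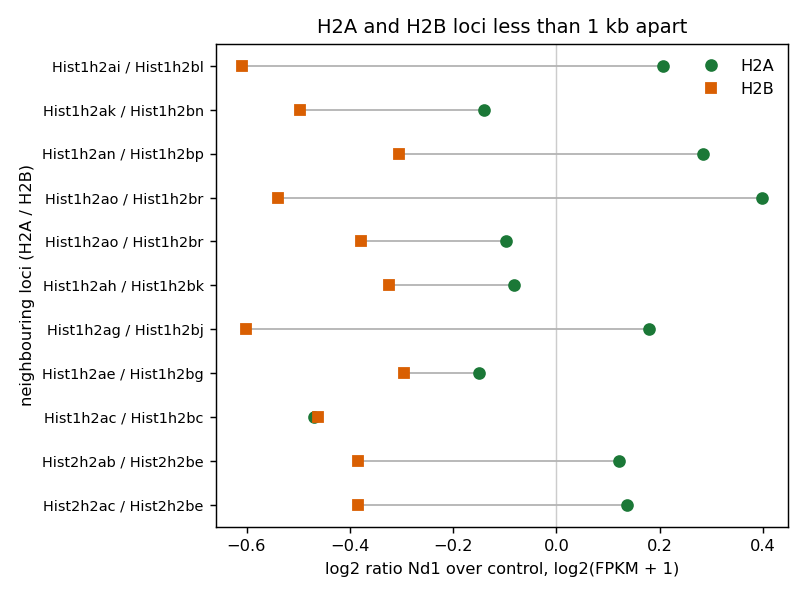
Log2 ratio of Nd1 over control, on the log2(FPKM + 1) scale, for the 11 combinations of an H2A locus (circles) and an H2B locus (squares) less than 1 kb apart, each joined by a line. Rows that join several symbols, such as that of Hist3h2a and Trim17, are left out. All squares lie below 0, and the circles lie on both sides, with 5 of 11 below 0.

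None of 14 tested H3 loci passed in the authors' deposited table by Cuffdiff, and 0 had an unadjusted p under 0.05. The replication-dependent type of H3 in the Hist2 cluster was well represented in this polyadenylated RNA. Hist2h3c1 stood at 62.2 and 62.3 FPKM in control and Nd1, Hist2h3c2 at 37.9 and 34.8 FPKM and Hist2h3b at 22.7 and 20.8 FPKM. The 9 H3 genes of the Hist1 cluster lay far below these, between 0.585 and 2.45 FPKM in control and between 0.695 and 2.32 FPKM in Nd1. Their median log2 ratio was -0.14, and 7 of the 9 were lower in Nd1 by value. The median over all H3 loci, -0.11, turned to 0.011 after quantile normalization. The Hist2 H3 genes share much sequence, with 79.7% of the 50-base windows of Hist2h3b and 63.5% of those of Hist2h3c2 found in another member.

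Of 13 tested H4 loci, Hist2h4 alone passed (7.69%, beside 34.4% of all tested loci). Among loci under 1 kb other than histone genes and odorant receptors, 10.1% passed. Hist2h4 (mm9 chromosome 3, 96066893 to 96067240) rose from 8.50 to 20.6 FPKM, 2.43-fold (q = 0.000102 in the authors' deposited table). The level of Hist2h4 was the highest of the H4 genes in both groups, and only 1.01% of the 50-base windows of its transcript occur in another member. That transcript runs 1257 bases past its stem-loop, whereas the locus in the deposited table is 348 bases long. The 11 tested H4 loci of the Hist1 cluster whose mean reached 0.5 FPKM lay between 0.748 and 2.94 FPKM in control and between 0.913 and 3.48 FPKM in Nd1. Of these, 6 were higher and 5 lower in Nd1 by value, and none passed. Hist4h4, the H4 gene of chromosome 6, was at 0.257 and 0.574 FPKM and did not pass. The summed FPKM of all H4 rows was 28.6 in control and 42.9 in Nd1, of which Hist2h4 made up most of the difference. The median log2 ratio over the H4 loci, 0.093, moved to 0.166 after rescaling to loci other than odorant receptors and to 0.255 after quantile normalization. Under the same settings the median of all loci moved from -0.060 to 0.031 and to 0.005.

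**Figure D3:**
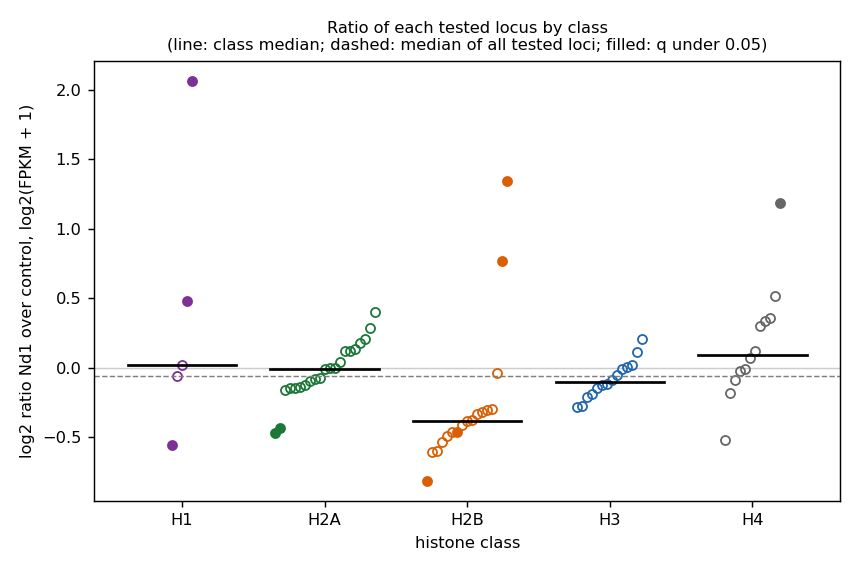
Log2 ratio of Nd1 over control, on the log2(FPKM + 1) scale, for the 69 tested histone loci whose mean reached 0.5 FPKM, by class (black line: class median; dashed line: median of all tested loci, -0.060; filled: q under 0.05). The H2B median of -0.38 lies below those of H1 (0.017), H2A (-0.014), H3 (-0.11) and H4 (0.093), and 2 H2B loci of the Hist3 cluster lie far above it.

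Among the linker histone genes 2 rose and 1 fell, of 7 tested (42.9%, beside 34.4% of all tested loci). H1fx, which encodes the replacement linker histone H1X (mm9 chromosome 6, 87930415 to 87934174), rose from 1.16 to 8.05 FPKM, 6.92-fold (q = 4.11e-15 in the authors' deposited table). H1f0, which encodes H1.0, the linker histone that accumulates in differentiated cells (chromosome 15, 78858642 to 78860930), rose from 24.9 to 35.1 FPKM (q = 0.00157 in the authors' deposited table). H1foo, the linker histone of oocytes (chromosome 6, 115894957 to 115900251), fell from 0.940 to 0.320 FPKM (q = 0.00493 in the authors' deposited table), at levels where the FPKM + 1 scale gives a log2 ratio of only -0.56. The replication-dependent H1 genes did not pass, with Hist1h1c at 9.95 and 10.1 FPKM and the row that joins Hist1h1e and Hist1h2be at 5.71 and 5.44 FPKM. Hist1h1d (0.463 and 0.258 FPKM) and Hist1h1a (0.0952 and 0.348 FPKM) were near the lower end of the table. H1f0 made up 57.4% of the summed H1 FPKM in control and 58.7% in Nd1.

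The H1fx interval of 3760 bases also carries a row for Gm5577, a long non-coding RNA gene, which rose from 1.33 to 10.7 FPKM (q listed as 0 in the authors' deposited table). In the RefSeq table of GRCm38.p6 both genes lie on opposite strands with 200 bases between them. There H1fx runs from 87980421 to 87981482 and Gm5577 from 87981683 to 87984180. The deposited interval is as long as both genes with the bases between them. Whether the counting used strand is not given. The values of both genes rose together, and reads that pass between them cannot be told apart here. The other member rows that overlap a gene of another symbol were H2afy2 (with Aifm2) and H2afy3 (with Pvt1), neither of which passed, and the joined row of Hist3h2a.

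Upstream sequence is shown for H1fx and Hist3h2ba, the members that rose most on the log2 scale. Each line gives the 250 bases before the start in RefSeq (GRCm38.p6), and capitals mark the TATA box core TATAAA, the CCAAT box and the octamer ATTTGCAT on either strand. The H1fx window lies at chr6:87981483-87981732 on the minus strand and reaches into the start of Gm5577. The Hist3h2ba window lies at chr11:58948661-58948910 on the plus strand.
H1fx: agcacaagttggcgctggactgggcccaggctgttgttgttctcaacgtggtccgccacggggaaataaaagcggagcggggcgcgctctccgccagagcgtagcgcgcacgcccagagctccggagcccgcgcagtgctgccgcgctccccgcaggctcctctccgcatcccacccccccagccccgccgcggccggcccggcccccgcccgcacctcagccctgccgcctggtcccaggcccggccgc
Hist3h2ba: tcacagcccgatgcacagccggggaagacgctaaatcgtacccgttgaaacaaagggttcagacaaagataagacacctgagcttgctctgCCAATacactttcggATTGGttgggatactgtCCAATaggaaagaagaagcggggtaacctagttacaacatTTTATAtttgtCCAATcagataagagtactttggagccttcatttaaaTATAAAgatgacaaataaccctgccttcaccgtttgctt
The Hist3h2ba window held 4 CCAAT and 2 TATAAA matches, and the H1fx window held none of the 3 motifs. Over the 69 member symbols matched in the table, CCAAT was found in 53 (76.8%), beside 37.5% of all 27025 promoters. Among clustered genes it was found in all 6 for H1, all 15 for H2A and all 15 for H2B. For H3 it was found in 8 of 10 and for H4 in only 3 of 12. TATAAA was found in 30 member symbols (43.5%), beside 14.3% of all, and ATTTGCAT, the octamer known from H2B promoters, in 15 (21.7%), beside 1.81%. The octamer was held by 7 of 15 clustered H2A genes, 7 of 15 clustered H2B genes and none of the clustered H1, H3 and H4 genes. Paired H2A and H2B genes share the sequence between them, so such matches are counted for both. Among 11 solitary genes, CCAAT was found in 6, TATAAA in 1 and the octamer in 1.

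Replacement variants of the core histones differed little between the groups. None of the 8 tested H2af and H3f3 loci passed by Cuffdiff in the authors' deposited table, and 0 had an unadjusted p under 0.05. H3f3b, an H3.3 gene, was the second most abundant histone locus at 372 FPKM in control and 348 in Nd1, and H3f3a, which encodes the same protein, stood at 64.4 and 65.2 FPKM. The log2 ratio of H3f3b was -0.093 and turned to 0.011 after rescaling and to 0.085 after quantile normalization. H2afz, the main H2A.Z gene, was at 35.8 and 32.8 FPKM, and H2afv, the other H2A.Z gene, at 10.4 and 9.80 FPKM. H2afy, which encodes macroH2A1, was listed at 217 and 220.5 FPKM in one row and at 6.90 and 6.49 FPKM in another on the same interval, and the test failed for both rows. H2afy2, which encodes macroH2A2, was at 26.01 and 25.9 FPKM. H2afx was at 14.1 and 14.0 FPKM, H2afj at 10.1 and 8.87 FPKM, and the macroH2A pseudogene H2afy3 at 4.90 in control and 4.88 in Nd1. Under rescaling the ratios of H2afx, H2afv, H2afy2 and H2afy3 turned from just below to just above 0. The groups were close by value in each of these genes, but an interval for the differences cannot be given without values per library.

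**Figure D4:**
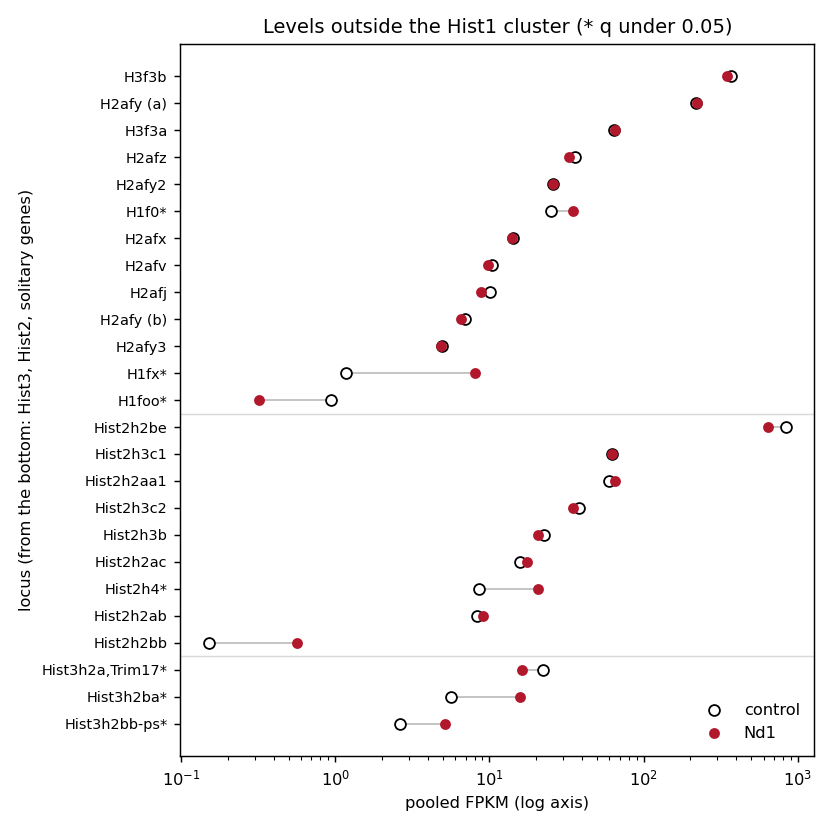
Pooled FPKM (log axis) in control (open circles) and Nd1 (filled circles) for histone loci outside the Hist1 cluster of at least 0.5 FPKM in a group, ordered by control level within the solitary genes, the Hist2 cluster and the Hist3 cluster; an asterisk marks q under 0.05, and the 2 H2afy rows are marked a and b. The circles nearly coincide for H3f3a (64.4 and 65.2 FPKM), H2afx and H2afy2, and lie far apart for H1fx, Hist2h4 and Hist3h2ba.

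By cluster, of 49 tested loci in the Hist1 cluster none rose and 3 fell (6.12%), and of 9 in the Hist2 cluster 1 rose and none fell (11.1%). All 3 rows of the Hist3 cluster passed, 2 higher and 1 lower, and of 11 tested solitary loci 2 rose and 1 fell (27.3%). Over all tested loci 34.4% passed, and 10.1% of the other loci under 1 kb, odorant receptors left out. The loci of the Hist2 cluster had the higher levels, with a median of 30.3 FPKM in control over the 8 whose mean reached 0.5 FPKM, beside 2.94 FPKM over 47 such loci of the Hist1 cluster. Within the clusters, genes whose annotated transcript runs more than 100 bases past the stem-loop had a median of 2.50 FPKM in control (19 genes with an unjoined value), and genes whose transcript ends nearer to it had a median of 2.30 FPKM (20 genes). The 19 clustered genes with a value and no match had a median of 5.11 FPKM. The median log2 ratios of these sets, in the same order, were -0.055, -0.011 and -0.14. Of the member loci, 27 have a length that fits a coding region alone, and their values rest on gene models without UTRs.

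The 12 rows that were not tested lay near 0. Of these, 6 were listed at 0 in both groups: H1fnt, a linker histone gene of spermatids, H2afb1, 3 short H1fx intervals of 29 to 43 bases and a second Hist1h2bc row. A further 3, Hist1h2aa, Hist1h1b and a second row of Hist1h2br, were listed at 0 in control and at 0.0823, 0.0443 and 0.0633 FPKM in Nd1. No member was listed at 0 in Nd1 only. The last 3 were Hist1h1t, an H1 gene of testis (0.157 and 0.109 FPKM), a further row of Hist1h2br (0.0712 and 0.169 FPKM) and a second row of Hist1h4b (0.0191 and 0.0176 FPKM).

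Genes that handle histones were described from lists of chaperones, exchange complexes and message processing factors. Among 28 tested histone chaperones 2 rose and 4 fell in the authors' deposited table (21.4%, beside 34.4% of all loci), with a median log2 ratio of -0.093. Nap1l5, of the nucleosome assembly protein family, fell from 16.9 to 7.31 FPKM, and the nucleoplasmin family gene Npm3 fell from 1.96 to 1.00 FPKM. The assembly factor subunit Chaf1a rose from 10.5 to 14.8 FPKM and Nap1l3 from 6.02 to 8.94 FPKM. Also lower were Rbbp4 (27.5 to 20.9 FPKM) and Ubn2 (24.3 to 21.3 FPKM). Of 18 tested genes on the list for complexes that exchange H2A.Z, 2 rose and 2 fell (22.2%, beside 34.4% of all loci). That list holds both Actl6b and Actl6a, of which Actl6a (19.0 and 15.4 FPKM) did not pass. Yeats4 rose from 11.8 to 15.9 FPKM and Actl6b, a neuronal subunit of chromatin remodelling complexes, from 0.307 to 0.664 FPKM, while the acetyltransferase Kat5 fell from 23.1 to 18.5 and Brd8 from 26.3 to 23.7 FPKM.

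Of 16 tested factors of replication-dependent histone messages, 1 rose and 5 fell (37.5%, near the 34.4% of all loci), with a median log2 ratio of -0.057 beside -0.060 over all loci. Lsm10, a subunit of the U7 particle that cuts these messages, rose from 4.67 to 6.76 FPKM. Factors of the same step, Lsm11 (2.53 to 1.74 FPKM), Zfp473 (2.15 to 1.16 FPKM) and Sympk (52.2 to 40.6 FPKM), fell, as did Upf1 (19.6 to 16.5 FPKM), which acts in their decay, and Casp8ap2 (8.96 to 7.39 FPKM). Of 18 tested proliferation genes, 1 rose and 1 fell (11.1%), and the median of the tested genes whose mean reached 0.5 FPKM was 1.43 FPKM in control and 1.99 in Nd1. Pcna, the replication clamp, was the most abundant of the list at 25.6 and 20.5 FPKM and did not pass. The division markers Mki67 (0.264 and 0.154 FPKM) and Top2a (0.218 and 0.214 FPKM) were not tested. In that list the transcription factor E2f1 rose from 2.47 to 11.3 FPKM and Rrm2, a subunit of ribonucleotide reductase, fell from 0.863 to 0.286 FPKM.

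The labelled cell type was checked against marker lists. Over all tested loci 34.4% passed, with 15.1% higher and 19.2% lower in Nd1. Of the tested sustentacular markers 36.4% passed, near the share over all loci. Mature neuron markers were abundant in both groups, with 1 of 14 tested higher and 11 lower in Nd1. Among the lower were Omp (4087 and 605 FPKM), Stoml3 (3425 and 1254 FPKM) and S100a5 (3542 and 1461 FPKM). Green fluorescent protein is expressed from the Omp locus in all mice, and tTA in all but the control of replicate 1. The part of these alleles in the Omp value and in the summed FPKM of this list was not tested. Immature neuron markers gave 10 rises and 2 falls among 14 tested, with Gng8 at 3.11 and 71.7 FPKM, Nhlh1 at 1.58 and 7.52 FPKM and Nhlh2 at 0.905 and 5.25 FPKM. Basal and progenitor markers gave 5 falls among 11 tested (Krt5 at 8.03 and 3.86 FPKM), sustentacular markers 4 falls among 11 (Krt18 at 15.5 and 8.97 FPKM), neutrophil markers 7 falls among 9 (S100a9 at 10.1 and 1.92 FPKM) and erythroid markers 2 falls among 3 (Hbb-b1 at 22.7 and 11.9 FPKM). Of 13 macrophage and lymphocyte markers found, 4 were tested, and Gzma rose (0.257 to 5.65 FPKM) while Ptprc fell (0.490 to 0.0475 FPKM). Cd3e was listed at 0 in control and Cd8a at 0 in Nd1. The summed FPKM was 18813 in control and 8289 in Nd1 for the mature list, and 995 and 1311 for the immature list. For the other lists the sums were 35.0 and 27.2 (basal), 390 and 336 (sustentacular), 36.8 and 10.02 (neutrophil), 2.02 and 6.81 (macrophage and lymphocyte) and 64.5 and 35.9 (erythroid). These marker levels moved with the comparison, and their part in the histone values was not tested. In RNA from many cells, fewer cells of a type and less RNA per cell cannot be told apart.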

How the data were processed

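Polyadenylated RNA of sorted olfactory neurons was sequenced in 4 libraries (TruSeq, per the labels' protocols). Bowtie, Cuffdiff 1.3.0 and mm9 are named in the submitters' processing notes, without an annotation. Deposited were FPKM values, 1 per group, with the p-values and q-values of Cuffdiff, per the file headers. Since the 2 libraries of a group have no separate columns, no spread between them could be had and the planned limma fit was not run. The depth is unknown, so no interval or floor is given.

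Calls are the authors' at q under 0.05, and q matched a Benjamini-Hochberg adjustment within 1% in 100.0% of tested loci. Log2 ratios with a pseudocount of 1, medians over loci whose mean reached 0.5 FPKM, counts and sums were computed with Python 3.11.15 and pandas 2.3.3, and the adjustment and calls were tested on simulated data. The medians of the stem-loop sets had no such minimum and took a single value per symbol, from its tested locus of highest mean. A joined row was classed by its first symbol. Starts had 1 added. Transcripts were matched by symbol for 78 of 78 symbols in GENCODE M21, and promoters for 69 of 78 in RefSeq (GRCm38.p6). Coordinates are otherwise those of the table on mm9.

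Named genes were Hist2h2be, members called, members of at least 5 FPKM in a group, solitary genes of at least 1 FPKM, the 4 largest called changes of each gene list and the 3 largest of marker lists, and Omp, Mki67 and Top2a. Others complete a count, show the extremes of a group or share a locus, and were chosen after their values were seen. The members and lists were chosen with earlier results of these data known. Stricter thresholds and other pseudocounts, filters and scalings were tried. The list of linker histone partners is not reported here.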

Additional observations from a re-analysis of the deposited data

How the results depend on the processing

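No paired analysis was possible because the table holds a single pooled value per group, and leaving out a replicate in turn could not be run for the same reason. Calls could not be recomputed under other scalings, so these bear on ratios only. At q under 0.01 the members lower in Nd1 numbered 1 in place of 5, H2A calls 0 in place of 2, H2B calls 1 in place of 4, Hist1 calls 0 in place of 3 and Hist3 calls 1 in place of 3. Requiring a change of at least 1.5-fold left 2 lower, 0 H2A calls and 1 Hist1 call. Leaving out joined rows left 1 H2A call, as did leaving out rows that overlap another symbol, an alternative chosen after seeing the data, as were the scalings of the pairs. In the other counts the values stayed within 1.5 times. Quantile normalization moved the median log2 ratio of the members from -0.081 to 0.019 and that of Hist2h2be from -0.38 to -0.15, and rescaling to loci other than odorant receptors moved Hist2h2be to -0.28; the cause was not tested. Over 39 named loci, 23 of 156 ratios moved. No named member that passed changed its direction under the 4 alternatives for ratios. A ratio was called moved when it shifted by over 0.1 (log2), since no spread between libraries is held.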

Other observations

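Of 17 tested genes of DNA damage signalling around H2AX, 1 rose and 2 fell in the authors' deposited table (17.6%, beside 34.4% of all tested loci). Trp53bp1, which is recruited to marked chromatin, rose from 16.7 to 20.4 FPKM, while Mdc1, which binds phosphorylated H2AX, fell from 13.0 to 10.04 FPKM and the H2AX kinase Baz1b from 29.7 to 26.3 FPKM. H2afx itself stood at 14.1 and 14.0 FPKM.

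Cenpa and Hils1, histone-related genes whose symbols lie outside the rule for members, did not pass. Cenpa, the centromeric H3 variant, was at 0.961 and 0.533 FPKM, and Hils1, a linker-like gene of spermatids, at 0.188 and 0.477 FPKM; both were chosen after their values were seen.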
